A study of Mus musculus with 8 samples.

Results

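The genes of mitochondrial and peroxisomal fatty acid oxidation described here are 38 genes of carnitine transport, beta-oxidation, its peroxisomal branch, its regulators and ketone body use. They were taken by symbol and matched through GENCODE M21 to the 50143 Ensembl gene IDs of the deposited counts. All 38 were found and passed the filter on low counts, which left 14887 genes for testing. RNA sequencing was done on 8 tumours that grew from Py230, a mouse mammary adenocarcinoma line, after injection into mammary gland 4 of female C57BL/6 mice. The obese group, with 4 tumours, came from mice on a high-fat diet (60% of calories from fat, 5.1 kcal/g), and the lean group, also with 4 tumours, came from mice on a regular diet (10% of calories from fat, 3.6 kcal/g). Every host had been ovariectomized when 6 weeks old and received its diet 2 weeks later, over 6 weeks. Mice on the high-fat diet gained 35% in weight on average, and tumours were resected on day 56 and snap-frozen. All tumours derive from a single cell line, and the labels do not say whether each came from a different animal, so p-values measure the spread between these tumours only.

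Beta-oxidation shortens fatty acids step by step into acetyl-CoA. Long chains enter mitochondria as carnitine esters, and each cycle uses a dehydrogenase, a hydratase, a second dehydrogenase and a thiolase, while electrons from the first step pass through the electron transfer flavoprotein to the respiratory chain. Peroxisomes start on very long and branched chains with oxidases, and the nuclear receptors PPAR-alpha and PPAR-delta, acting with retinoid X receptors, switch on many of these genes when they bind fatty acids. In the mammary gland the balance between making and burning fat shifts with lactation.

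The proximal promoters of 4 of these genes are shown as examples. Ppard had the largest increase past the test described below, and Acot1 was near absent from 3 obese tumours. Cpt1a and Acadvl are entry and first-step genes that differed in the sign of their change. The changes of Acot1 and Cpt1a did not pass that test. The sequences are from RefSeq (GRCm38.p6), 5′ to 3′ on the gene's strand, up to 250 bases before the RefSeq start and trimmed where a GENCODE exon begins. They lie at chr17:28232504-28232699 (+ strand) for Ppard, chr12:84009252-84009489 (+ strand) for Acot1, chr19:3323051-3323284 (+ strand) for Cpt1a and chr11:70015429-70015678 (− strand) for Acadvl. The Cpt1a window lies inside the GENCODE span of the gene but outside its exons. Capitals mark AGGTCA, the core element of nuclear receptor sites, or its reverse complement TGACCT.
Ppard: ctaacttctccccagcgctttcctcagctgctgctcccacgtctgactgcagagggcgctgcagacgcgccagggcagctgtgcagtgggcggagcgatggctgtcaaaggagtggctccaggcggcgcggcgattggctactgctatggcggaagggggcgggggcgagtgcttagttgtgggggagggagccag
Acot1: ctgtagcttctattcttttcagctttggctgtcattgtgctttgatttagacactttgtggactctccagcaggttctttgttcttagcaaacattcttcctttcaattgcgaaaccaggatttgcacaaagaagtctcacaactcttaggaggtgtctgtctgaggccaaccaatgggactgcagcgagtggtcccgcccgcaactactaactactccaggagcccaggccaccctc
Cpt1a: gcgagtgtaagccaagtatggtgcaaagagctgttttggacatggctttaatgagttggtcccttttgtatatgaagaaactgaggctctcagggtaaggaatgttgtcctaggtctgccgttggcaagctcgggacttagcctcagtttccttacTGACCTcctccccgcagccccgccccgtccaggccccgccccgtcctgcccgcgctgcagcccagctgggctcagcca
Acadvl: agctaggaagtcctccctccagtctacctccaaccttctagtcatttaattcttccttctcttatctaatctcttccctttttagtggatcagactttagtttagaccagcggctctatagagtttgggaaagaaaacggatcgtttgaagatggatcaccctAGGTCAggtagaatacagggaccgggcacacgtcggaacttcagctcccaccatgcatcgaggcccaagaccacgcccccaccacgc
A match to RefSeq promoters was found for 32 of the 38 genes, and both strands of the 250 bases before the start were searched. The site of PPAR with the retinoid X receptor, a pair of AGGTCA elements in the same direction with 1 base between them, was in 0 of these 32 and in 0.0407% of 27025 gene promoters. A looser form of it, with AGGNCA in place of each AGGTCA, was in 0 of 32 and 0.4%, and TCAAGGTCA, the element of oestrogen-related receptors, was in 0 of 32 and 0.422%. The single AGGTCA, which lies inside the strict pair and inside TCAAGGTCA and was searched after those gave no match, was in 5 of 32 (15.6%), namely Acadm, Acadvl, Cpt1a, Cpt1c and Echs1, against 15.8% of gene promoters. These are matches of letters in one window and say nothing about binding.

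The libraries held 25.7 to 66.7 M counts, so that 3 counts, the limit that a count of 0 allows, equal 0.0494 to 0.124 CPM (counts per 1 M counts, scaled by TMM factors). Epithelial markers, which define an adenocarcinoma line, had lower sums in every obese tumour than in any lean tumour. The 10 luminal markers summed to 69.1 to 819 CPM in obese tumours, against 1381 to 2578 CPM in lean tumours, and the highest obese sum was in obese tumour 3. Epcam, an epithelial adhesion protein, was at 0.495, 4.20, 175 and 5.52 CPM in obese tumours 1 to 4, against 233 to 539 CPM in lean tumours. It did not pass the test described below (log2 change −3.24 ± 1.55, edgeR adjusted p = 0.101). Krt8, a luminal keratin, was at 58.4, 267, 222 and 222 CPM in obese tumours 1 to 4, against 309 to 824 CPM in lean tumours. It passed (−1.46 ± 0.48, edgeR adjusted p = 0.0300). The 9 basal markers summed to 78.7 to 123 CPM in obese tumours and 345 to 4433 CPM in lean tumours, with lean tumour 2 highest, and 8 of the 9 were lower. Among them Acta2 had overlapping groups, at 35.3 to 88.7 CPM in obese tumours and 41.5 to 2335 CPM in lean tumours. Krt5, a basal keratin, was at 0 to 8.09 CPM in obese tumours and 39.8 to 745 CPM in lean tumours. Obese tumour 3 stood apart from the other obese tumours in the luminal sum and in Epcam, but not in Krt8. Results that rest on it are given with and without it.

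Fatty acid oxidation RNA was lower in the obese tumours for 20 of the 38 genes. The summed level of the 38 genes was 2028, 2174, 2715 and 2196 CPM in obese tumours 1 to 4, against 3316, 3783, 3546 and 3398 CPM in lean tumours 1 to 4. Every obese sum was below every lean sum. By edgeR's quasi-likelihood test with Benjamini-Hochberg adjustment over all tested genes and a threshold of 0.05, 20 members fell, 2 rose and 16 did not pass. Among all tested genes 28.4% fell and 30.9% rose (59.2% either way), and the members' shares were 52.6% and 5.26%. The median log2 change (obese minus lean) was −0.62 over the members and −0.04 over all tested genes. At least 2-fold lower were 5 of the 38 members, Bdh1, Ppara, Ucp2, Ehhadh and Acaa1a, and at least 2-fold higher was 1, Ppard. Both are smaller shares than the 21.3% and 17.2% of all tested genes. In 20 members every obese tumour was below every lean tumour and in 2 every obese tumour was above, against 28.1% and 28.9% of tested genes (57.0% either way). Some of these members passed the filter only through the lean tumours, as given below. In bulk tumour RNA, fewer cells of a type and less RNA per cell cannot be told apart.

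**Figure D1:**
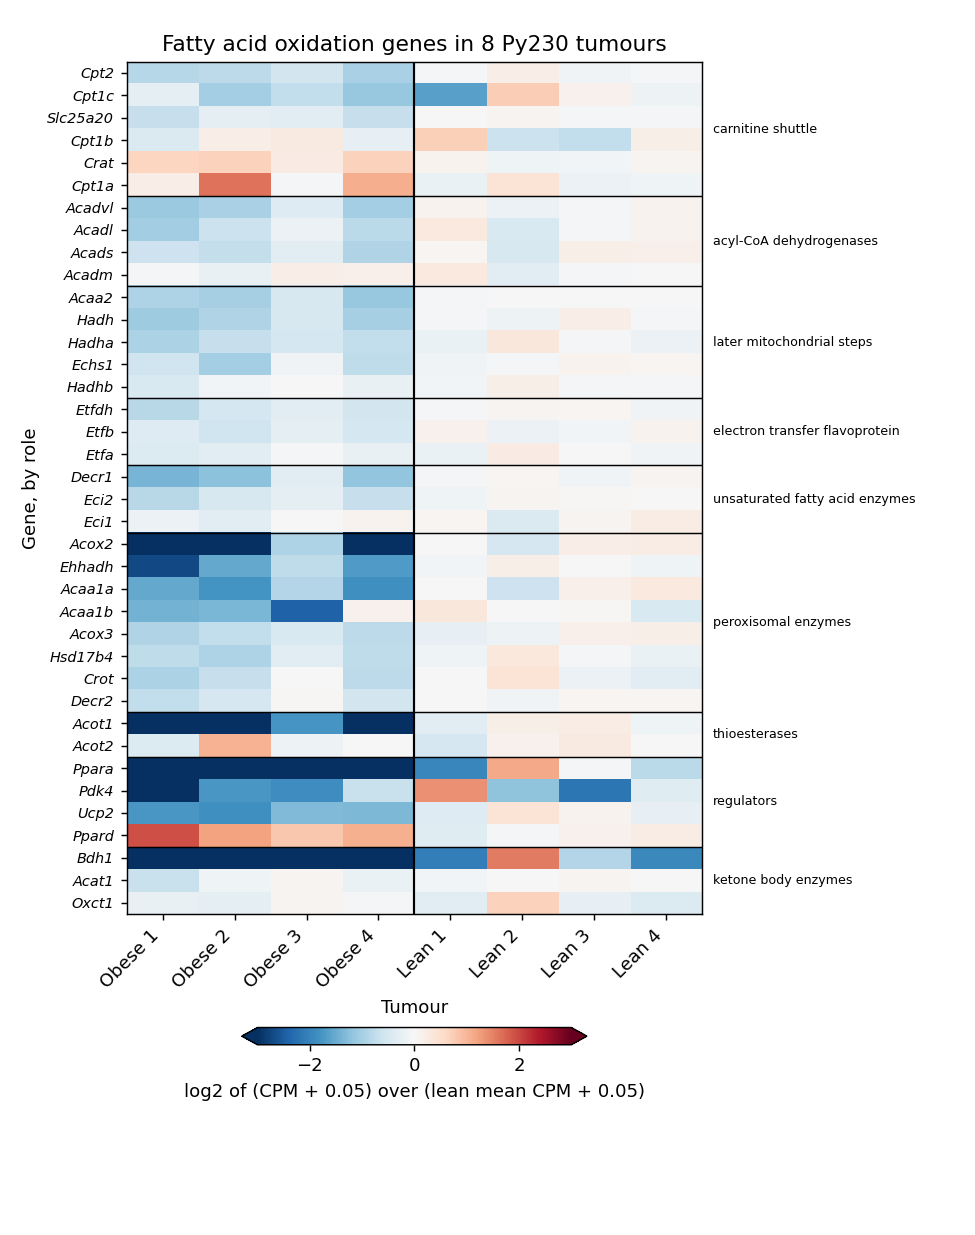
Level of each of the 38 genes (rows, by role) in each tumour (columns, obese 1 to 4 then lean 1 to 4), as the log2 ratio of CPM to the lean mean, with 0.05 CPM added to both and colours saturated at the ends of the bar. Most obese columns are blue, obese tumour 3 is the palest of the 4, and the rows of Ppard, Cpt1a and Crat are red in 3 or more obese tumours.

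Obese tumour 3 was the closest of the obese tumours to the lean level. The median member stood at 56.5%, 61.4%, 80.5% and 59.7% of the lean mean in obese tumours 1 to 4. It was the highest of the obese tumours in 28 of the 38 members (73.7%) and in 18 of the 20 that fell (90%), while it was highest in 36.3% of all tested genes and in 74.3% of all genes that fell. Without obese tumour 3, 24 members fell and 3 rose, against 33.6% and 31.1% of all genes then tested, and the members' median was −0.77. A level above the filter's cut of 0.21 CPM was reached in all 8 tumours by 32 members. Of these 18 fell (56.25%) and 2 rose (6.25%), against 28.4% and 30.9% of all tested genes. In 16 of them (50%, against 28.1% of all tested genes) every obese tumour was below every lean tumour. At least 2-fold lower were 3 of them, against 21.3% of all tested genes. The shares of all tested genes were taken without this cut, which leaves out genes near absent from a group. They are therefore not a like background for the 32 members. Acaa1b, Acox2, Acot1, Ppara and Bdh1 passed the filter through the lean tumours, and Cpt1b through a mix of both groups. For those that passed through the lean tumours, a low obese level is not independent of the filter.

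**Figure D2:**
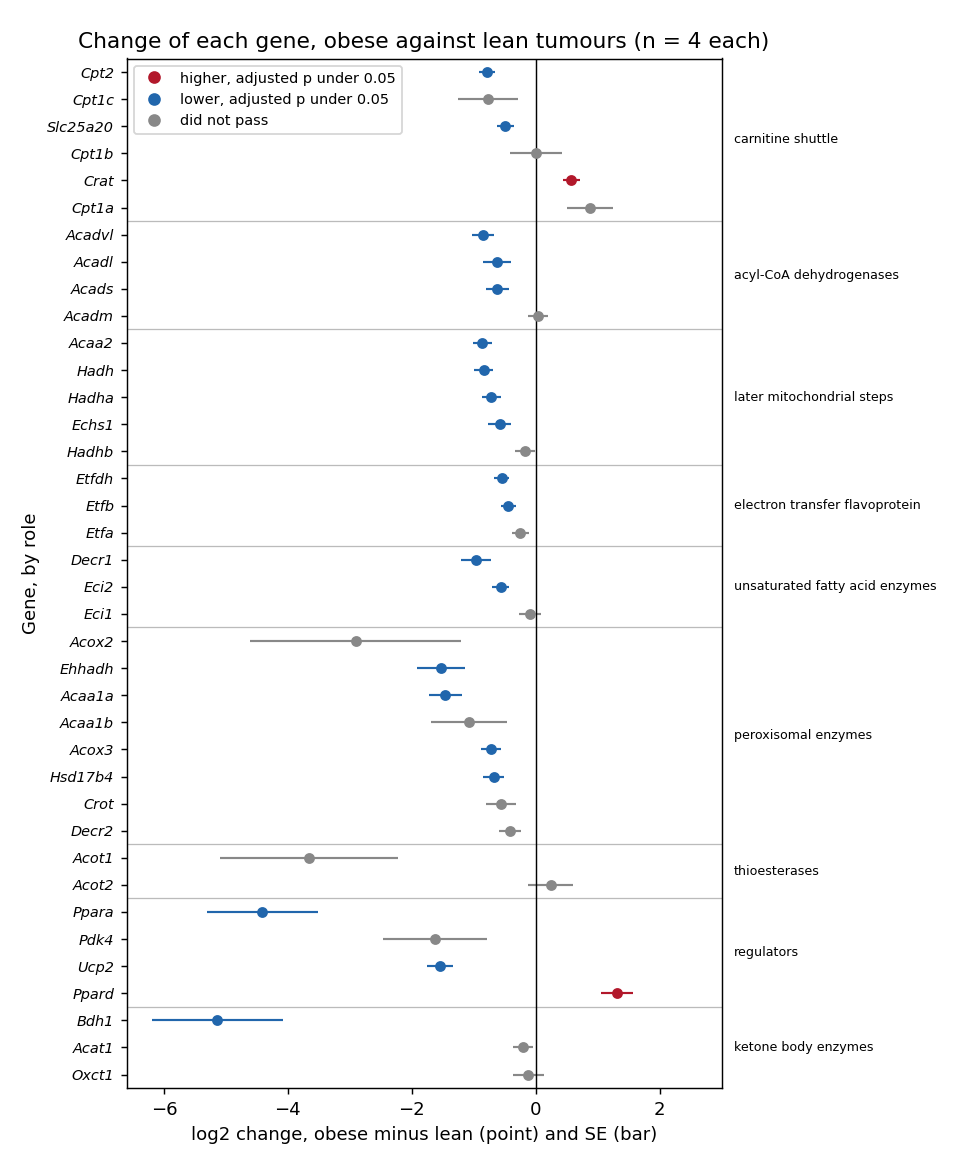
Log2 change of each gene, obese minus lean (point), with its SE (bar), grouped by role, n = 4 tumours per group. The 20 blue genes fell, the red genes Ppard and Crat rose, and the 16 grey genes did not pass the test.

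Genes of the carnitine shuttle moved in both directions, with 2 of 6 lower (33.3%), 1 higher (16.7%) and 3 not past the test. Among all tested genes 28.4% were lower and 30.9% higher. Each count by role, here and below, stands against these shares and rests on few genes. Cpt2 (4:107903981-107923610, GRCm38, − strand), the inner-membrane transferase that turns carnitine esters back into acyl-CoA, was at 34.4, 36.0, 42.2 and 31.4 CPM in obese tumours 1 to 4, against 59.8, 71.3, 57.6 and 60.1 CPM in lean tumours 1 to 4. All obese values lay below all lean values, and the log2 change was −0.79 ± 0.13 (SE; edgeR adjusted p = 0.00216). Slc25a20, the carrier that moves the esters across the inner membrane, averaged 38.1 ± 5.95 CPM in obese tumours and 53.4 ± 2.39 CPM in lean tumours (SD, n = 4 each), a change of −0.49 ± 0.13 (edgeR adjusted p = 0.0154). That call ended without obese tumour 4 (adjusted p = 0.0516). Over the 16 other settings tried, the adjusted p of Slc25a20 ran from 0.00032 to 0.0516.

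Crat (2:30400471-30415813, − strand), which exchanges short acyl groups between CoA and carnitine, rose in the obese tumours. Its level was 52.8, 54.1, 39.7 and 53.8 CPM in obese tumours 1 to 4, against 36.2, 30.5, 31.9 and 35.6 CPM in lean tumours 1 to 4. Obese tumour 3 was the lowest of the obese group and still above every lean tumour. The log2 change was 0.58 ± 0.14 (edgeR adjusted p = 0.00878).

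Cpt1a encodes the liver-type form of the outer-membrane transferase, which commits long chains to oxidation and is blocked by malonyl-CoA. It was at 52.4, 141, 44.2 and 97.1 CPM in obese tumours 1 to 4, against 39.3, 60.5, 40.2 and 41.2 CPM in lean tumours 1 to 4. Obese tumours 2 and 4 were above all lean tumours, while obese tumours 1 and 3 lay within the lean range. With a log2 change of 0.88 ± 0.37 it did not pass (edgeR adjusted p = 0.0684), and without obese tumour 3 the change was 1.11 (adjusted p = 0.0179, within 0.0179 to 0.176 over the 16 settings).

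The other transferase forms were scarce. Cpt1b, the muscle form, was at 0.206 to 0.367 CPM in obese tumours and 0.156 to 0.516 CPM in lean tumours, with a change of 0.00 ± 0.42 (edgeR adjusted p = 0.998). Of the exon bases of Cpt1b, 81.4% are also exon of Gm44502 on the same strand, so its count is uncertain. Cpt1c, the brain form, was at 2.45 to 4.50 CPM in obese tumours and 1.74 to 9.20 CPM in lean tumours, with a change of −0.77 ± 0.49 (edgeR adjusted p = 0.197), and −1.05 without lean tumour 1 (adjusted p = 0.0498, within 0.0498 to 0.478 over the 16 settings). The per-tumour log2 ratio of Cpt1c to Cpt1a (prior count 2) was −4.56 ± 1.09 in obese tumours and −3.24 ± 0.83 in lean tumours (SD, n = 4 each). That difference of −1.32 had an exact two-sided permutation p of 0.114 (0.171 adjusted over the 3 ratios tested). The log2 ratio of Cpt1b to Cpt1a differed by −0.67 (exact permutation p = 0.257, adjusted p = 0.257). When 1 tumour was left out, the Cpt1c ratio difference ran from −1.73 to −0.95 and the Cpt1b ratio difference from −1.04 (without obese tumour 3) to −0.33 (without lean tumour 1).

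The acyl-CoA dehydrogenases, which take the first step of each cycle and split the work by chain length, fell in 3 of 4 cases. Acadvl, for very long chains, was at 78.7, 86.7, 130 and 84.1 CPM in obese tumours 1 to 4, against 183, 151, 163 and 184 CPM in lean tumours 1 to 4. Obese tumour 3 was nearest to the lean group but below all of it, and the log2 change was −0.85 ± 0.18 (edgeR adjusted p = 0.00526). On the opposite strand, 42.9% of the exon bases of Acadvl overlap Dvl2, whose level averaged 49.2 CPM in obese tumours and 29.2 CPM in lean tumours (log2 change 0.75 ± 0.16). The strand setting of the counting is not given, so reads of the pair may be mixed.

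Acadl, for long chains, had the highest level per kb of the 38 genes in both groups. It was at 139, 184, 257 and 165 CPM in obese tumours 1 to 4, against 351, 211, 279 and 311 CPM in lean tumours 1 to 4. Obese tumour 3 lay above lean tumour 2, so the groups overlapped. The log2 change was −0.63 ± 0.23 (edgeR adjusted p = 0.0406), and the call ended in 7 of the 16 settings, with an adjusted p of 0.00643 to 0.106. These were no filter on low counts and leaving out obese tumour 1, 2 or 4 or lean tumour 1, 3 or 4.

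Acads, for short chains, averaged 67.6 ± 11.8 CPM in obese tumours and 104 ± 20.1 CPM in lean tumours (SD, n = 4 each). The groups overlapped and the log2 change was −0.62 ± 0.19 (edgeR adjusted p = 0.0218). The Acads call ended in 6 of 16 settings, namely without obese tumour 1, 2 or 4 or lean tumour 3 or 4 and with offsets for GC content and length, where the change was −0.07 (adjusted p 0.00249 to 0.618 over the settings). Acadm, for medium chains, was at 71.6 to 96.6 CPM in obese tumours and 67.3 to 104 CPM in lean tumours. Its change was 0.04 ± 0.16 (edgeR adjusted p = 0.856) and its sign varied with the scaling.

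The later mitochondrial steps fell in 4 of 5 genes. Acaa2, the thiolase that closes the cycle, was at 57.1, 54.8, 78.9 and 49.4 CPM in obese tumours 1 to 4, against 107, 109, 111 and 110 CPM in lean tumours 1 to 4. The lean tumours were within a narrow band that no obese tumour reached, and the log2 change was −0.86 ± 0.15 (edgeR adjusted p = 0.00272). Hadh, the hydroxyacyl-CoA dehydrogenase of shorter chains, averaged 83.3 ± 16.5 CPM in obese tumours and 149 ± 15.9 CPM in lean tumours, a change of −0.84 ± 0.16 (edgeR adjusted p = 0.00339). Hadha, the alpha subunit of the trifunctional protein for long chains, was at 119 to 160 CPM in obese tumours, against 199 to 288 CPM in lean tumours. The groups did not overlap for Hadh or Hadha, and Hadha changed by −0.71 ± 0.15 (edgeR adjusted p = 0.00592).

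Hadhb, the beta subunit of the same protein, was at 14.3 to 19.9 CPM in obese tumours and 18.7 to 22.2 CPM in lean tumours. Its change of −0.17 ± 0.16 did not pass (edgeR adjusted p = 0.354), while offsets for GC content and length gave −0.61 and a call (adjusted p = 0.00716, within 0.00716 to 0.667 over the 16 settings). Of the 100-base windows of Hadhb transcripts, 14.8% also occur in Gm13910, so its level may be split between both. Echs1, the hydratase of shorter chains, averaged 80.3 ± 22.1 CPM in obese tumours and 120 ± 7.71 CPM in lean tumours (SD, n = 4 each), and the highest obese tumour lay just under the lowest lean tumour. The change was −0.58 ± 0.19 (edgeR adjusted p = 0.0282). The Echs1 call ended without obese tumour 1, 2 or 4 or lean tumour 3 or 4, with an adjusted p of 0.00171 to 0.0793 over the 16 settings.

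The electron transfer flavoprotein genes had smaller changes, and 2 of 3 fell. Etfdh, the oxidoreductase that hands electrons to ubiquinone, was at 41.6 to 57.8 CPM in obese tumours, against 69.0 to 78.0 CPM in lean tumours, a change of −0.55 ± 0.12 (edgeR adjusted p = 0.00719). Etfb, the beta subunit, was at 75.3 to 95.1 CPM in obese tumours and 101 to 124 CPM in lean tumours, with a change of −0.44 ± 0.12 (edgeR adjusted p = 0.0152). The groups did not overlap for either gene. Offsets for GC content and length turned the Etfb change to 0.13, and without obese tumour 4 its adjusted p was 0.0506 (0.000546 to 0.291 over the 16 settings). Of the exon bases of Etfb, 58.2% are shared on the same strand with Gm45233 or Mir7051. Etfa, the alpha subunit, was at 106 to 137 CPM in obese tumours and 125 to 170 CPM in lean tumours, and did not pass (−0.25 ± 0.13, edgeR adjusted p = 0.136). It passed with library size only (−0.43), upper quartile factors (−0.46) and the 1 CPM filter (−0.35).

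Enzymes that prepare double bonds for the cycle fell in 2 of 3 cases. Decr1, the mitochondrial dienoyl-CoA reductase, was at 29.7, 33.6, 63.0 and 34.6 CPM in obese tumours 1 to 4, against 74.99, 81.4, 73.3 and 83.5 CPM in lean tumours 1 to 4. Obese tumour 3 stood well above the other obese tumours and below all lean ones, and the log2 change was −0.96 ± 0.24 (edgeR adjusted p = 0.0103). Eci2, an enoyl-CoA isomerase of mitochondria and peroxisomes, averaged 58.6 ± 9.56 CPM in obese tumours and 86.5 ± 4.94 CPM in lean tumours (−0.56 ± 0.13, edgeR adjusted p = 0.00903). The mitochondrial isomerase Eci1 was at 34.4 to 47.3 CPM in obese tumours and 32.4 to 50.8 CPM in lean tumours, with overlapping groups and a change of −0.09 ± 0.17 (edgeR adjusted p = 0.655), which offsets for GC content and length turned to 0.23.

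Peroxisomal enzymes included the largest falls among the enzymes of the cycle, with 4 of 8 lower and 0 higher (8 of 8 had a negative change). Ehhadh, the L-bifunctional hydratase and dehydrogenase, was at 2.35, 5.29, 9.18 and 4.73 CPM in obese tumours 1 to 4, against 14.6, 17.6, 15.7 and 14.3 CPM in lean tumours 1 to 4. The groups did not overlap and the log2 change was −1.53 ± 0.38 (edgeR adjusted p = 0.0107). Acaa1a (9:119339676-119350299, + strand), the peroxisomal thiolase, was at 44.96, 37.7, 70.3 and 36.4 CPM in obese tumours 1 to 4, against 130, 84.8, 145 and 160 CPM in lean tumours 1 to 4. Lean tumour 2 was the lowest lean value and obese tumour 3 the highest obese value, with no overlap. The change of Acaa1a was −1.46 ± 0.27 (edgeR adjusted p = 0.00343). Its neighbour copy Acaa1b was at 0.0773 to 0.696 CPM in obese tumours and 0.444 to 0.810 CPM in lean tumours and did not pass (−1.08 ± 0.62, edgeR adjusted p = 0.159). Without obese tumour 4, the highest obese value of Acaa1b, the change was −1.92 (adjusted p = 0.0205, within 0.0205 to 0.494 over the 15 settings that kept it). Of the 100-base windows, 7.21% of Acaa1a and 19.3% of Acaa1b are shared between these copies.

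Hsd17b4, the D-bifunctional protein of the same step as Ehhadh, was at 86.4 to 131 CPM in obese tumours, against 144 to 206 CPM in lean tumours (−0.68 ± 0.17, edgeR adjusted p = 0.0110). Acox3, an oxidase of branched chains, averaged 23.9 ± 3.28 CPM in obese tumours and 39.2 ± 5.87 CPM in lean tumours (−0.72 ± 0.16, edgeR adjusted p = 0.0065). No obese value reached a lean value for either gene. Decr2, the peroxisomal dienoyl-CoA reductase, changed by −0.41 ± 0.18 (edgeR adjusted p = 0.0808). Crot, which passes shortened chains to carnitine for export, changed by −0.56 ± 0.25 (edgeR adjusted p = 0.0782). Obese tumour 3 lay within the lean range for Decr2 and Crot, and without it they changed by −0.59 and −0.80 (adjusted p = 0.00731 and 0.00799, the lowest over the 16 settings, where the highest were 0.188 and 0.178). With every tumour kept, both passed with DESeq2 size factors, the DESeq2 Wald test, library size only, upper quartile factors and the 1 CPM filter. Crot also passed with offsets for GC content and length (−0.90).

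Acox2 (14:8225511-8259353, − strand), the oxidase of bile acid intermediates and branched chains, was nearly absent from 3 of the obese tumours. It was at 0, 0.0824, 19.0 and 0.288 CPM in obese tumours 1 to 4, against 36.3, 25.7, 41.7 and 42.2 CPM in lean tumours 1 to 4. The counts behind the obese values were 0, 5, 984 and 12, and those behind the lean values 1343 to 2379. All obese tumours were below all lean tumours, yet the spread within the obese group left a log2 change of −2.90 ± 1.70 short of the test (edgeR adjusted p = 0.167). Without obese tumour 3 the change was −8.06 (adjusted p = 8.54e-05, within 8.54e-05 to 0.262 over the 16 settings). With every tumour kept, limma-voom gave −6.56 and a call (limma-voom adjusted p = 0.00324).

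The thioesterase Acot1 (12:84009490-84018371, + strand), which frees fatty acids from CoA in the cytosol, had the same arrangement of tumours. It was at 0.0826, 0.692, 22.2 and 0.672 CPM in obese tumours 1 to 4, against 60.2, 85.001, 87.3 and 68.8 CPM in lean tumours 1 to 4. Obese tumour 3 stood far above the other obese tumours and far below every lean tumour. The log2 change of −3.66 ± 1.44 did not pass (edgeR adjusted p = 0.0565), while without obese tumour 3 it was −7.15 (adjusted p = 5.92e-05, within 5.92e-05 to 0.107 over the 16 settings). With every tumour kept, Acot1 passed with DESeq2 size factors (−3.77), the DESeq2 Wald test (−3.78) and limma-voom (−5.93). Its mitochondrial relative Acot2 was at 4.83 to 13.3 CPM in obese tumours and 4.54 to 7.69 CPM in lean tumours (0.24 ± 0.37, edgeR adjusted p = 0.581), and 17.1% of Acot2 windows are shared with Acot1. The difference in change between Acot1 and Acot2 was not tested.

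**Figure D3:**
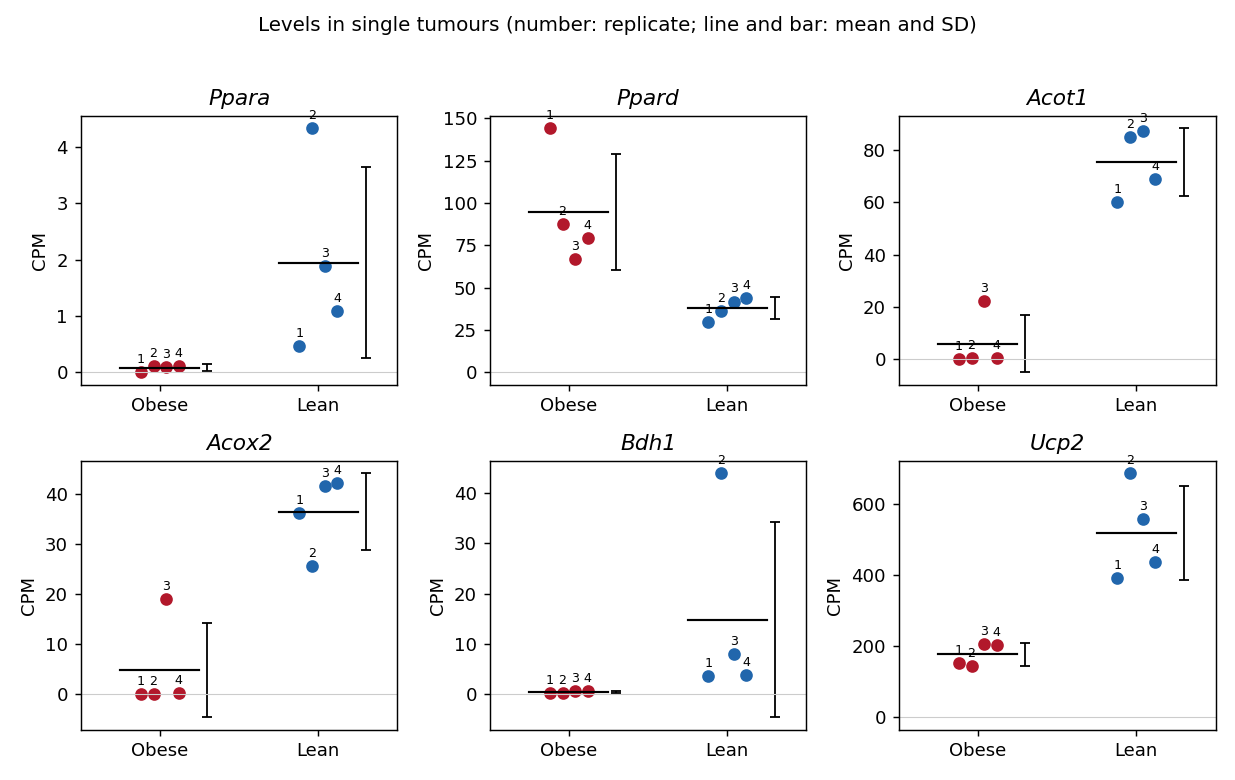
CPM in each tumour (numbered points) for Ppara, Ppard, Acot1, Acox2, Bdh1 and Ucp2, obese left and lean right, with the mean (line) and SD (bar), n = 4 per group. Obese tumour 3 is at 22.2 CPM for Acot1 and 19.0 CPM for Acox2, apart from the other obese tumours, and lean tumour 2 is at 43.9 CPM for Bdh1, apart from the other lean tumours.

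The fatty acid receptors changed in opposite directions. Ppard (17:28232700-28301474, + strand), whose product PPAR-delta is expressed in many tissues, was at 144, 87.5, 66.9 and 79.6 CPM in obese tumours 1 to 4, against 29.7, 36.2, 41.8 and 44.1 CPM in lean tumours 1 to 4. Every obese tumour exceeded every lean tumour, and the log2 change was 1.32 ± 0.25 (edgeR adjusted p = 0.00389). Ppara (15:85734983-85802819, + strand), whose product PPAR-alpha drives fat burning in liver, was at 0, 0.115, 0.0967 and 0.120 CPM in obese tumours 1 to 4, against 0.467, 4.33, 1.89 and 1.08 CPM in lean tumours 1 to 4. These were 0, 7, 5 and 5 counts in the obese tumours and 19 to 226 counts in the lean tumours, so the obese level was near the limit of detection and the lean level was low as well. The groups did not overlap, with a log2 change of −4.41 ± 0.89 (edgeR adjusted p = 0.00473), and −3.65 without lean tumour 2, the highest (adjusted p = 0.00738, within 5.09e-06 to 0.0156 over the 15 settings that kept Ppara).

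The log2 ratio of Ppard to Ppara (prior count 2) was 11.74, 9.12, 8.91 and 8.94 in obese tumours 1 to 4, against 5.87, 3.05, 4.44 and 5.29 in lean tumours 1 to 4. The difference in means was 5.01, and 5.73 with a prior count of 0.5. It ran from 4.33 to 5.42 when 1 tumour was left out. Its size rests in part on the prior count, since Ppara had few counts in obese tumours. All obese ratios were above all lean ratios, which follows from the separation of both genes given above. The exact two-sided permutation p of 0.0286 (0.0857 adjusted over the 3 ratios) was thereby fixed and adds no support. It is the smallest that 4 against 4 tumours allow.

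Ucp2 (7:100493337-100502020, + strand), an inner-membrane carrier, had the smallest p of the 38 genes. It was at 154, 145, 206 and 203 CPM in obese tumours 1 to 4, against 393, 685, 556 and 436 CPM in lean tumours 1 to 4. The obese values were well below the lean values throughout, and the log2 change was −1.55 ± 0.21 (edgeR adjusted p = 0.001). Pdk4, the kinase that closes pyruvate dehydrogenase when fat is burned, was at 0.826, 2.39, 2.20 and 5.04 CPM in obese tumours 1 to 4, against 20.9, 3.47, 1.76 and 6.25 CPM in lean tumours 1 to 4. Lean tumour 1 was high and lean tumours 2 and 3 lay within the obese range. The change of −1.62 ± 0.83 did not pass (edgeR adjusted p = 0.120), and it was −0.55 without lean tumour 1.

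Of the ketone body enzymes, 1 of 3 fell (33.3%), a share near the 28.4% of all tested genes. Bdh1 (16:31422280-31458901, + strand), which interconverts beta-hydroxybutyrate and acetoacetate, was at 0.165, 0.214, 0.677 and 0.600 CPM in obese tumours 1 to 4, against 3.51, 43.9, 8.06 and 3.85 CPM in lean tumours 1 to 4. Lean tumour 2 was far above the other lean tumours, and even the lowest lean tumour was above every obese one. The log2 change was −5.14 ± 1.06 (edgeR adjusted p = 0.00515), and −3.61 without lean tumour 2 (adjusted p = 0.00358, within 1.4e-08 to 0.0173 over the 16 settings). Oxct1, which activates acetoacetate for use, was at 168 to 218 CPM in obese tumours and 154 to 332 CPM in lean tumours (−0.12 ± 0.26, edgeR adjusted p = 0.707). Acat1, the acetoacetyl-CoA thiolase, was at 90.2 to 152 CPM in obese tumours and 135 to 153 CPM in lean tumours (−0.21 ± 0.16, edgeR adjusted p = 0.283), and offsets for GC content and length gave −0.47 (adjusted p = 0.0312, within 0.0312 to 0.639 over the 16 settings). Oxct1 and Acat1 had overlapping groups, and in Oxct1 the sign turned without lean tumour 2.

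Per kb of exon, mean levels ranged widely. Acadl had 92.8 CPM per kb in obese tumours and 144 CPM per kb in lean tumours, followed by Etfb with 72.5 in obese and 98.4 in lean tumours and Etfa with 65.3 in obese and 77.5 in lean tumours. Next by the lean level was Ucp2, with 25.3 CPM per kb in obese tumours and 74.05 CPM per kb in lean tumours. Ppard, at 12.6 CPM per kb in obese tumours and 5.05 in lean tumours, was above Ppara, at 0.0216 in obese and 0.507 in lean tumours, in both groups. Among the transferase forms, Cpt1a had 10.9 CPM per kb in obese tumours and 5.93 in lean tumours, far above Cpt1c (0.575 in obese, 0.976 in lean) and Cpt1b (0.0860 in obese, 0.0876 in lean).

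**Figure D4:**
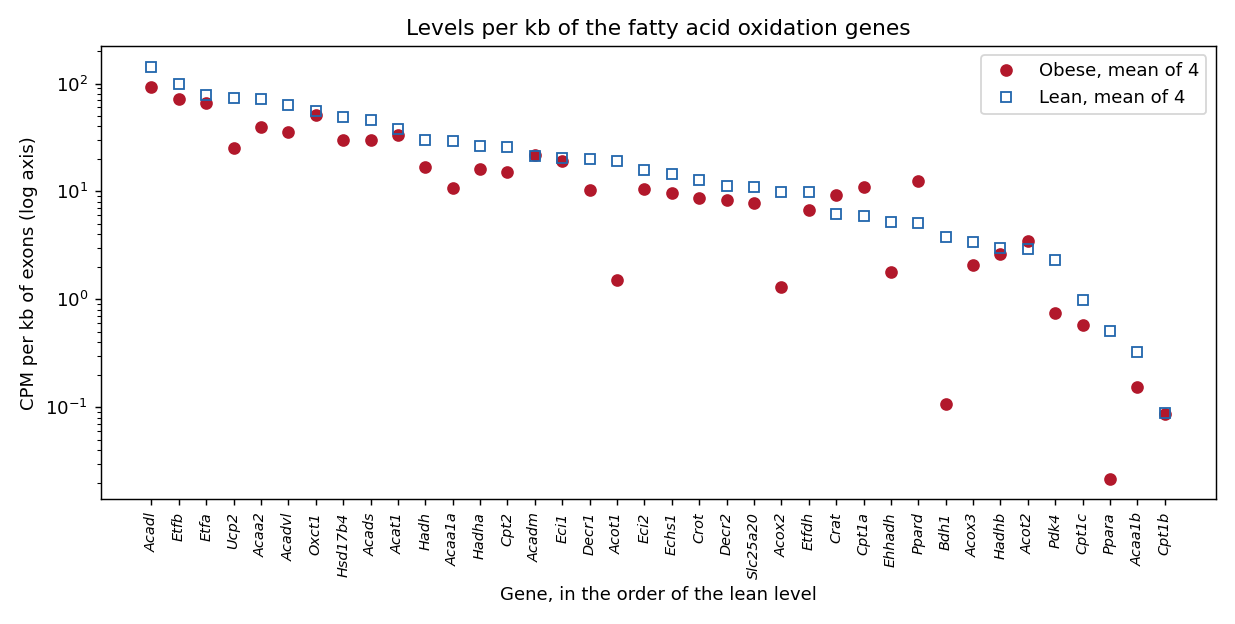
Mean CPM per kb of exon (log axis) of each gene in obese (filled) and lean (open) tumours, n = 4 each, ordered by the lean level. Acadl is highest at 92.8 in obese and 144 CPM per kb in lean tumours, and Ppara is lowest in obese tumours at 0.0216 CPM per kb.

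The other genes of the pathway, in 10 lists of 138 tested genes counted once each, were higher in 41 cases and lower in 44, shares close to the 30.9% and 28.4% of all tested genes. With library size only the split was 31 higher and 56 lower, and with upper quartile factors 30 higher and 58 lower. Peroxisomal genes outside the 38 were lower in 8 of 13 cases and higher in 0. Amacr, the racemase that readies branched chains, averaged 6.15 ± 1.47 CPM in obese tumours and 20.2 ± 1.53 CPM in lean tumours (−1.71 ± 0.22, edgeR adjusted p = 0.000681), and Scp2, a lipid carrier and peroxisomal thiolase, averaged 89.4 ± 42.2 CPM in obese tumours and 247 ± 30.5 CPM in lean tumours (−1.47 ± 0.30, edgeR adjusted p = 0.00479). Other mitochondrial acyl-CoA enzymes were lower in 6 and higher in 2 of 13. Nadk2, the mitochondrial kinase that makes NADP, averaged 50.8 ± 11.04 CPM in obese tumours and 9.66 ± 0.826 CPM in lean tumours (2.39 ± 0.19, edgeR adjusted p = 0.000181). Hsd17b10, a hydroxyacyl-CoA dehydrogenase, fell by 1.26 ± 0.22 on the log2 scale (edgeR adjusted p = 0.00244).

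Genes of fatty acid activation and carnitine supply were higher in 3 and lower in 4 of 11. The shares of all tested genes, for this and the next lists, were 30.9% higher and 28.4% lower. Aldh9a1, an aldehyde dehydrogenase of carnitine synthesis, averaged 179 ± 20.3 CPM in obese tumours and 42.9 ± 6.58 CPM in lean tumours (2.06 ± 0.15, edgeR adjusted p = 0.000159), and Mlycd, which removes malonyl-CoA, averaged 8.70 ± 3.29 CPM in obese tumours and 26.9 ± 5.77 CPM in lean tumours (−1.63 ± 0.32, edgeR adjusted p = 0.00397). PPAR partners and targets were higher in 4 and lower in 6 of 18. Among them Sirt1, a deacetylase that acts on oxidative gene regulators, rose by 2.16 ± 0.25 on the log2 scale (edgeR adjusted p = 0.00053), whereas Rxra, a retinoid X receptor, fell by 1.09 ± 0.14 (edgeR adjusted p = 0.000741) and Ppargc1a, a coactivator of oxidative genes, by 3.52 ± 0.64 (edgeR adjusted p = 0.00314), both on the log2 scale. Peroxins, which build peroxisomes, were higher in 2 and lower in 7 of 15, and the lower count was 2 to 4 without obese tumour 1, 2 or 4 or any lean tumour and 3 with no filter.

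Counts in several lists of other mitochondrial routes depended on the scaling. Mitochondrial import and upkeep genes rose in 10 of 18 cases and fell in 0, with 6 higher without lean tumour 1, 3 or 4. With scaling by library size or upper quartile 6 rose and 2 fell. Phb2, a prohibitin, averaged 466 ± 63.0 CPM in obese tumours and 192 ± 15.02 CPM in lean tumours (1.28 ± 0.13, edgeR adjusted p = 0.000327). Pyruvate entry genes rose in 7 and fell in 4 of 13, but 5 rose and 5 fell with DESeq2 size factors, library size only, upper quartile factors, the 1 CPM filter or GC and length offsets. Citric acid cycle genes rose in 6 and fell in 3 of 16, but 4 rose and 5 fell with library size only or upper quartile factors. The ketone body genes outside the 38 rose in 3 and fell in 0 of 6 (1 fell with limma-voom and without obese tumour 4). Cs, citrate synthase, was at 614 ± 81.2 CPM in obese tumours and 264 ± 32.5 CPM in lean tumours (1.22 ± 0.14, edgeR adjusted p = 0.000529). Slc16a1, a carrier of lactate and ketone bodies, was at 269.6 ± 54.1 CPM in obese tumours and 24.6 ± 8.21 CPM in lean tumours (3.46 ± 0.30, edgeR adjusted p = 0.000216). Branched-chain and propionate genes rose in 4 and fell in 6 of 16, and 2 rose and 8 fell with offsets for GC content and length. No list was tested against the others or against all genes.

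**Figure D5:**
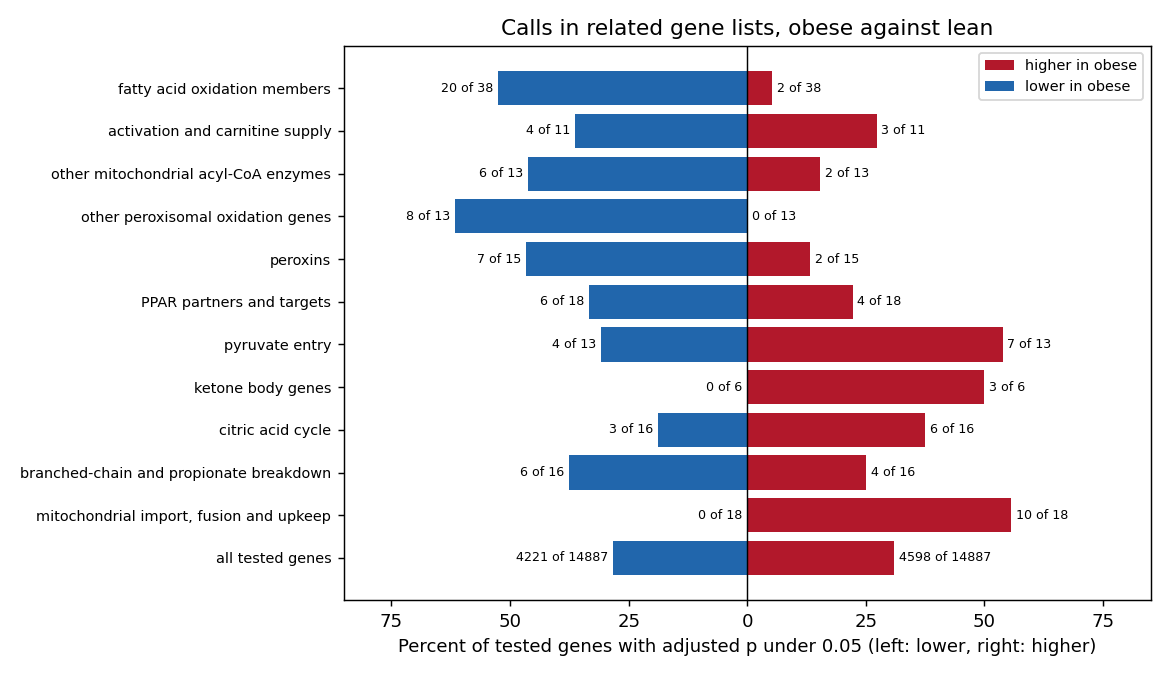
Share of tested genes past an adjusted p of 0.05, lower in obese tumours to the left and higher to the right, for the 38 genes, the 10 related lists and all tested genes, with counts at the bars. The 38 genes (20 lower, 2 higher) and the other peroxisomal genes (8 lower, 0 higher of 13) have more falls than rises, and the mitochondrial import and upkeep genes (10 higher, 0 lower of 18) have more rises, with 6 higher and 2 lower under scaling by library size or upper quartile.

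Markers of other cell types that a tumour piece can hold differed between the groups as well. Their counts stand against 28.4% lower and 30.9% higher among all tested genes. The 12 skeletal muscle markers summed to 57.6 to 296 CPM in obese tumours and 55.8 to 1614 CPM in lean tumours, with lean tumours 1 and 4 highest, and 2 were lower and 0 higher. White adipocyte markers summed to 103 to 557 CPM in obese tumours and 261 to 624 CPM in lean tumours (2 of 10 lower). Brown adipocyte markers summed to 1.65 to 9.07 CPM in obese tumours and 15.04 to 32.8 CPM in lean tumours, with 1 of 6 tested lower, which was Ppargc1a, while the defining marker Zic1 was at 0 and Ucp1 at most 0.0480 CPM in obese and 0.0710 CPM in lean tumours. Of the epithelial lists, 5 of 10 luminal and 8 of 9 basal markers were lower. Macrophage markers were higher in 5 and lower in 1 of 9, with sums of 1816 to 2208 CPM in obese tumours and 1128 to 2942 CPM in lean tumours. T cell markers were lower in 6 of 7 (24.6 to 71.7 CPM in obese, 90.7 to 228 CPM in lean tumours, Trac at 0) and B cell markers in 4 of 5 (4.17 to 9.65 CPM in obese, 22.8 to 53.0 CPM in lean tumours, Ighm at 0). Trac and Ighm were at 0 in all 8 tumours, while Cd3g was at 13.5 to 37.7 CPM and Cd79a at 7.10 to 16.3 CPM in lean tumours. The 0 values therefore do not show that these cells were absent. Endothelial markers were lower in 4 of 8 (131 to 192 CPM in obese, 151 to 343 CPM in lean tumours), and fibroblast markers were higher in 2 and lower in 4 of 8 (449 to 1555 CPM in obese, 815 to 1069 CPM in lean tumours). The part of these cell types in the changes of the 38 genes was not tested.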

How the data were processed

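Gene expression was measured by RNA sequencing of 4 obese and 4 lean tumours, grouped by the labels. The deposited file holds counts of reads per Ensembl gene, with no normalization by the authors. Per the submitters' processing notes, the build was mm10 and the tools were HTSeq, STAR 2.5.2b, cutadapt 1.12, bcl2fastq 2.18.0.12 and CASAVA 1.8, and the annotation and strand setting are not given in the sources used here. No pair of libraries was a duplicate (28 pairs compared).

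The members and the gene lists were chosen with earlier results of these data known. All 38 members are named, and other genes by a rule that took up to 3 called genes with the smallest p per list, of which part are printed. Outside that rule, Pparg and the relatives of Acsl6 were named beside related genes, and Acta2 beside the basal sums. Genes kept by filterByExpr (minimum count 10, total 15) were scaled by TMM and tested with edgeR 4.0.16 (quasi-likelihood, two-sided, R 4.3.3), with Benjamini-Hochberg adjustment over 14887 genes. The SE is the log2 change over the square root of F. Ratios used an exact permutation test over 70 assignments. On simulated data for obese against lean (14790 genes), 57% of the 100 genes with a 4-fold change and 7% of the 100 with a 2-fold change were recovered. No other genes were changed there, so the adjustment was stricter than in the real data, where 59.2% of genes passed. These shares therefore do not give the recovery in the real data. Alternatives were DESeq2 1.42.0 size factors and Wald test, library size only, upper quartile, no filter, 1 CPM in 4 tumours, limma-voom (limma 3.58.1) and leaving out each tumour. Offsets for GC content and length (14759 genes) and the single-element promoter search were added after the data were seen. Protein sequences were not used here. Copies were compared by shared 100-base transcript windows instead. Depths and counting floors cover counting error only.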

Additional observations from a re-analysis of the deposited data

Results flagged for a closer look

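The 38 genes gave 76 groups of 4 tumours, obese and lean. In 9 of them the highest or lowest tumour lay apart from the others by more than Dixon's 95% critical value (0.829). About 1 in 20 groups of independent, normal values would do so. The 76 groups share the same tumours and hold CPM values, so their count cannot be set against that rate. Obese tumour 3 accounted for 5 of the 9 and lean tumour 2 for 4. Obese tumour 3 was the highest obese tumour for Acadvl (130 CPM, others 78.7 to 86.7), Decr1 (63.0 CPM, others 29.7 to 34.6), Acot1 (22.2 CPM, others 0.0826 to 0.692) and Acox2 (19.0 CPM, others 0 to 0.288), and the lowest for Crat (39.7 CPM, others 52.8 to 54.1). In the lean group, tumour 2 was the highest for Cpt1a (60.5 CPM, others 39.3 to 41.2), Hadhb (22.2 CPM, others 18.7 to 18.9), Bdh1 (43.9 CPM, others 3.51 to 8.06) and Oxct1 (332 CPM, others 154 to 174). The log2 ratio of Ppard to Ppara was also apart in obese tumour 1 (11.74, others 8.91 to 9.12), where Ppara had a count of 0.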

How the results depend on the processing

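No paired analysis was possible because the labels give no replicate numbers or pairing, and the numbers used here only name tumours. Over the 16 alternatives 17 of the 22 called members kept their call wherever a value could be had (the filter at 1 CPM dropped Cpt1b, Acaa1b and Ppara), 5 lost it at least once, and of the 16 others 10 passed at least once and 6 never did. The members' median log2 change moved to −0.80 with library size only and to −0.83 with upper quartile factors. The median of all tested genes was then −0.22 and −0.25, so the members' median relative to all genes was −0.58 in both, against −0.59 with TMM. Over all 16 alternatives this relative median ran from −0.71 (without obese tumour 3) to −0.44 (no filter). All genes split into 4598 higher and 4221 lower with TMM, 3690 and 5026 with library size only, and 3612 and 5145 with upper quartile factors. Leaving out 1 tumour gave 16 to 24 members lower, 2 to 3 higher, and a median of −0.77 to −0.55.

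The sign turned for 6 members. Cpt1b was at −0.051 with DESeq2 size factors, −0.053 with the DESeq2 Wald test, −0.17 with library size, −0.21 with upper quartile factors and −0.21 to 0.39 when 1 tumour was left out. Acadm was at −0.011 with DESeq2 size factors and with the Wald test, −0.14 with library size, −0.17 with upper quartile factors, −0.062 with the 1 CPM filter, −0.047 with GC and length offsets and −0.056 to 0.16 when 1 tumour was left out. With GC and length offsets Etfb was at 0.13 and Eci1 at 0.23. When 1 tumour was left out, Acot2 ran from −0.16 to 0.42 and Oxct1 from −0.24 to 0.21. The causes were not tested. Genes near 0.1 CPM, such as Ppara in obese tumours, rest on few counts, and 4 tumours a group limit the precision of all changes.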
